A study of Homo sapiens with 5 samples.

Results

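Of the 20087 H3K27ac peaks in the deposited table, 460 carried the lowest signal of the table in both groups at once, which is 2.29% of all peaks. These 460 peaks, called lowest-value peaks here, were chosen by their measured signal alone, as peaks whose IFN-β value and control value each equaled the minimum of its column. H3K27ac, acetylation of lysine 27 on histone H3, marks active promoters and enhancers. It was profiled by chromatin immunoprecipitation and sequencing in HCT116 CMV-osTIR1 RAD21-mAC cells, a derivative of the colorectal carcinoma line HCT116 in which the cohesin subunit RAD21 carries a degron tag and the plant protein osTIR1 is expressed from the CMV promoter. All cells received 0.1% DMSO for 6 h, and the labels name no agent that would trigger the degron. The IFN-beta group (2 libraries) was then given IFN-β at 1000 unit/ml for 1 h. The control group (2 libraries, labelled 0 min) and the input (1 library without antibody, labelled 60 min) were not further treated. The line is the only cell model of the series. The study used its acetylation change after interferon to evaluate a method that finds transcription factor motifs enriched in scored regions.

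The table holds 1 signal value per group and none per library, so no replicate error could be computed from it, and no test was run here. The study gives reads per library as a range, but the total of each library is not in the table, so the depth behind a value is not known here. The signal of a group is its mean of normalized reads over both libraries, on a log2 scale. The lowest value was -0.59 in the IFN-β column and -0.17 in the control column, which correspond to 0.664 and 0.889 normalized reads. The table does not say whether this lowest value stands for no read or for a small number of reads. The other 19627 peaks had a median log2 signal of 4.43 after IFN-β and of 5.08 in the control. The values just outside the rule were -0.01 in the IFN-β column and 0.35 in the control column. A further 47 peaks were lowest in the IFN-β column only and 32 in the control column only. As a check of the cell type, 6 of 8 colon epithelial marker genes had a peak within 1 kb of a start site, with control log2 signals between 4.48 (CDH1) and 7.1 (EPCAM), whereas KRT18 and CDX1 had none. Among 7 markers of other cell types, only COL1A1 had such a peak (control log2 signal 5.24).

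Much of the human genome exists in more than 1 copy. Segmental duplications are long blocks copied within or between chromosomes, often near centromeres and chromosome ends, and they carry young gene families. Tandem arrays repeat a unit head to tail, as in the U2 small nuclear RNA genes and in the macrosatellite DXZ4 of the X chromosome. The pseudoautosomal regions at the ends of X and Y are shared by both chromosomes, and processed pseudogenes are copies of spliced messenger RNAs. A short read from such sequence can match several places equally well.

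Sequences from 3 kinds of lowest-value peak show what the members look like. They were read from GRCh38, the build named by the study. The first is a stretch of 120 bases at the center of a peak in the DXZ4 array, chrX:115844022-115844141 on the plus strand. It is printed in lower case throughout, because it occurs without any change at 18 places in the genome and in 17 lowest-value peaks.

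DXZ4: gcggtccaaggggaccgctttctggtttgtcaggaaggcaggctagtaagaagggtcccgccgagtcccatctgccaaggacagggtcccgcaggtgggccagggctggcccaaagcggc

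The second is the whole U2 small nuclear RNA, 191 bases, the spliceosomal RNA that pairs with the branch point of introns. Of 13 U2 genes annotated in the array on chromosome 17, 7 lay wholly inside lowest-value peaks, and these had 2 distinct sequences. The first, shown at RNU2-1 (chr17:43233787-43233977, minus strand), was shared by 6 of the 7 genes and occurs 11 times in the genome. The second (chr17:43290291-43290481, minus strand) was found at 1 gene. The capital letter marks the only base at which they differ.

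U2 sequence 1: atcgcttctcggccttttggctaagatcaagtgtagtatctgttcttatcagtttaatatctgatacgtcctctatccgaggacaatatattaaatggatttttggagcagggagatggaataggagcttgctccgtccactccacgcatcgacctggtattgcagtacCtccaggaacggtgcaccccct
U2 sequence 2: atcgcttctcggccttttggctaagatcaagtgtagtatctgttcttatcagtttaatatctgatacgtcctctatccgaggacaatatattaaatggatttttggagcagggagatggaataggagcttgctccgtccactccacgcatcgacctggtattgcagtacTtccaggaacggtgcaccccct

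The third is a stretch of 240 bases from the lowest-value peak nearest IQUB (chr7:123533063-123533302, plus strand), a member with little repeated sequence. Capitals mark the 120 bases that lie in a stretch of 75 bases found more than once in the genome, and the lower-case part occurs once.

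IQUB: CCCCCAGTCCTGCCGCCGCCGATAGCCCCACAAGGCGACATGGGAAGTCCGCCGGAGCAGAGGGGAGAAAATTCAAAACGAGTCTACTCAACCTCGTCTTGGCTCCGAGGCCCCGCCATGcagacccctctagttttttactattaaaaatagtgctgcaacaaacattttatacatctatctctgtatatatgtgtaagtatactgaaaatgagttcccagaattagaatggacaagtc

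Most of the lowest-value peaks consisted largely of such repeated sequence. The repeated share of a peak was measured as the share of its overlapping stretches of 75 bases, the read length in the labels, that occur more than once in GRCh38 on either strand. Its median was 91.9% over the 460 lowest-value peaks and 0% over the other 19627 peaks. The middle 50% of the lowest-value peaks lay between 77.6% and 100%, and the full range was 4.21% to 100%. A repeated share of at least 50% was found in 437 of 460 lowest-value peaks (95%), compared with 109 of the other peaks (0.555%). All stretches were repeated in 192 lowest-value peaks and in 1 other peak. None of the lowest-value peaks was free of repeated stretches, whereas 16864 of the other peaks (85.9%) were. Base composition and width, which the rule did not use either, were close between the sets. The median GC content was 55.7% in the lowest-value peaks and 57.7% in the others, and the deposited start and end were 1000 bp apart in 92.8% and 91.4%, respectively.

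Most members were present in few copies. The median number of occurrences of a 75-base stretch of a peak was 2 in 217 lowest-value peaks, above 2 and below 4 in 75, from 4 to 9 in 113, and 10 or more in 32. In the remaining 23 peaks the median stretch occurred once or between once and 2 times. The highest median, 524 occurrences, was found for the peak at 9871 to 10871 of chromosome 5, next to the chromosome end.

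Read in the other direction, the share of lowest-value peaks was higher in each successive bin of the repeated share. None of the 16864 peaks without a repeated stretch was a lowest-value peak, and 2 of 2136 peaks (0.0936%) with up to 10% were. The count was 21 of 541 (3.88%) between 10% and 50%, 167 of 270 (61.9%) between 50% and 90%, 78 of 83 (94.0%) between 90% and 100%, and 192 of 193 (99.5%) at 100%. The median control log2 signal of the first 3 bins was 5.19, 4.64 and 3.52, and it was -0.17, the lowest value itself, in each of the other 3. Over the 109 peaks above 50% that escaped the rule, the median log2 signal was 1.29 in the control and 0.43 after IFN-β, with maxima of 4.6 and 3.73. Outside the rule, the median control log2 signal was thus 5.19 for peaks without a repeated stretch and 1.29 for those above 50%. The medians of the other bins include members, which the rule chose by their signal. How reads with several matches were placed and counted was not tested.

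**Figure D1:**
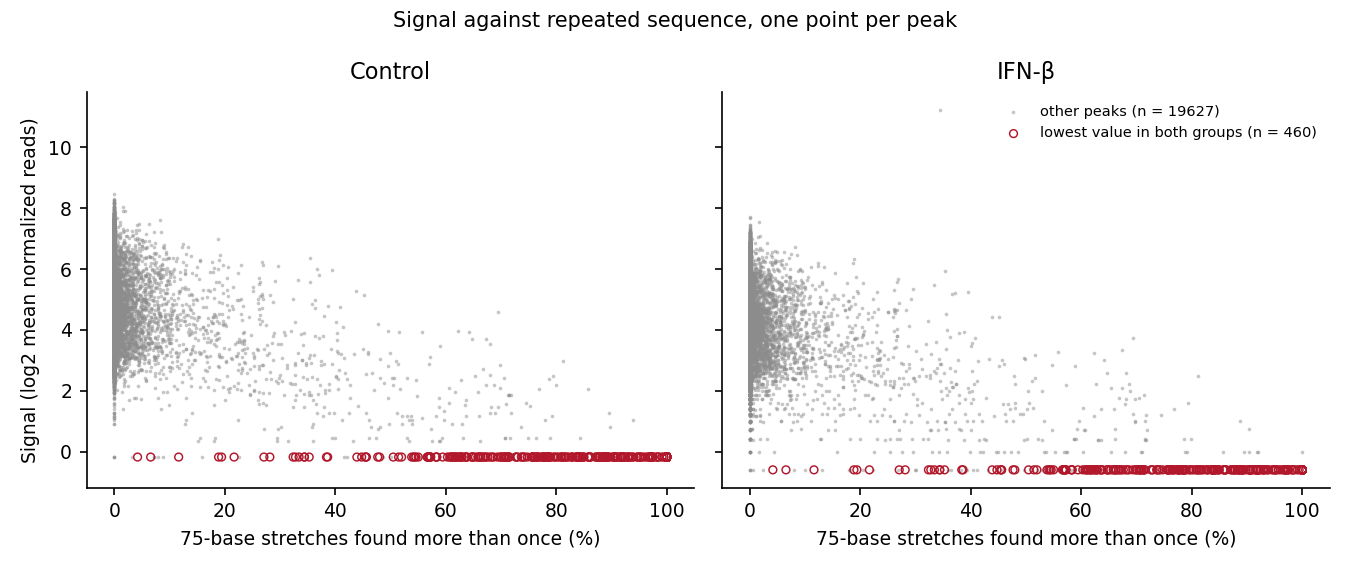
Log2 signal of each peak in the control group (left) and the IFN-β group (right) on the vertical axis, against the percentage of its 75-base stretches found more than once in GRCh38. Red circles are the 460 lowest-value peaks and gray points the other 19627; the red circles lie on a line at -0.17 (control) and -0.59 (IFN-β) and crowd toward 100%.

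**Figure D2:**
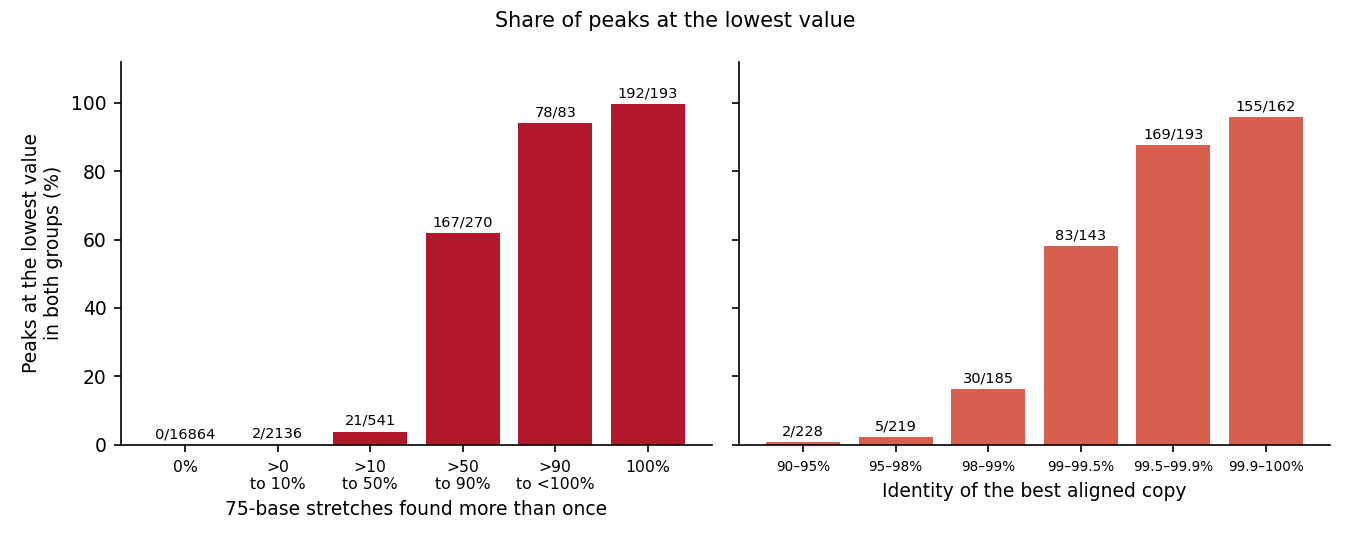
Percentage of peaks that are lowest-value peaks (vertical axis), by repeated share of the peak (left) and by identity of its best aligned copy (right), with counts above each bar. The share goes from 0 of 16864 peaks to 192 of 193 on the left, and from 2 of 228 to 155 of 162 on the right.

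Copies over longer distances were sought by aligning 10000 bp around each peak center. A copy elsewhere in the genome, of at least 1000 bp and 90% identity across the center, was found for 444 of 460 lowest-value peaks (96.5%) and for 686 of the other peaks (3.49%). The copies of lowest-value peaks were close to exact. Their best copy had a median identity of 99.76% (middle 50%, 99.45% to 99.94%), while that of the other peaks with a copy was 96.71% (93.94% to 98.43%). An identity of at least 99% was reached by 407 lowest-value peaks, and 66 had a copy without any difference. Lowest-value peaks made up 2 of 228 peaks (0.877%) whose best copy was 90% to 95% identical, 30 of 185 (16.2%) at 98% to 99%, 83 of 143 (58.0%) at 99% to 99.5%, 169 of 193 (87.6%) in the next bin above 99.5%, and 155 of 162 (95.7%) in the bin that reaches 100%. The number of copies was 1 for 148 members, 2 to 5 for 187 and more than 5 for 109.

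The best copy lay on the same chromosome for 365 of the 444 members (82.2%), and for 512 of the 686 other peaks with a copy (74.6%). On the same chromosome it was less than 10 kb away for 23 members, 10 to 100 kb for 81, 100 to 1000 kb for 99 and over 1 Mb for 162, with a median of 651 kb. The copy was in inverted orientation for 211 of the 365 and in direct orientation for 154. Among the 79 members with their best copy on another sequence, 39 lay on X or Y with that copy on the other sex chromosome. Another 18 involved an unplaced or unlocalized contig, and 22 joined other chromosomes.

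The members were largely copies of each other. For 364 of 460 (79.1%), at least 1 aligned copy lay at another lowest-value peak. When members were joined by these alignments, they fell into 215 sequence groups, of which 122 held 2 or more members and 367 members in total. Pairs made up 77 of these groups. The largest group was the 22 peaks of DXZ4, followed by the 18 peaks of the U2 array and by a group of 12 on the short arm of chromosome 21 and the contig GL000195.1. For 32 members the copies lay only at peaks outside the rule, and for 48 no copy lay at a peak.

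Lowest-value peaks were found on 23 of the 24 chromosomes, with chromosome 20 the exception (0 of 539 peaks). Chromosome 9 held 68 (7.99% of its 851 peaks), X 57 (10.4% of 547), chromosome 1 51 (2.56% of 1993), chromosome 17 48 (3.73% of 1286) and chromosome 21 42 (20.2% of 208). These 5 chromosomes held 57.8% of the members and 24.3% of all peaks. All 19 peaks of the Y chromosome were lowest-value peaks. The share was above the 2.29% of all peaks on 10 chromosomes. It was lowest, among chromosomes with any member, on chromosome 6, with 2 of 1122 peaks (0.178%). On contigs outside the chromosomes, 13 of 32 peaks (40.6%) were members, including all 3 peaks of KI270733.1.

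**Figure D3:**
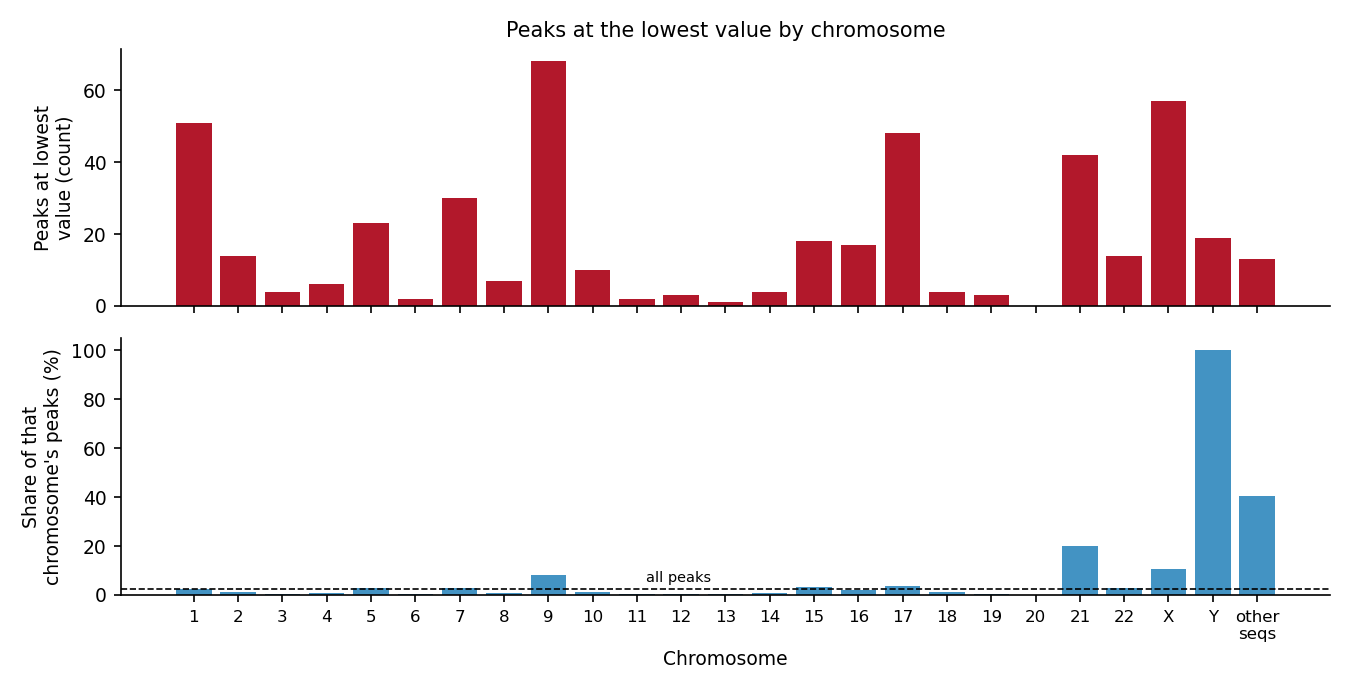
Number of lowest-value peaks on each chromosome (top) and their percentage of the peaks of that chromosome (bottom), with unplaced and unlocalized sequences in the last bar. The dashed line is the 2.29% of all peaks; chromosome 9 has the most members (68) and the Y chromosome the highest share (19 of 19).

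Spacing along the chromosomes was computed among members only, with no such value for all peaks beside it. The nearest other member was a median of 25.7 kb away, and less than 10 kb away for 167 members. When members less than 100 kb apart were joined, 333 of 460 (72.4%) fell into 98 clusters of 2 or more. Joined at 1000 kb, the 12 largest clusters held 250 members (54.3%), and these are described by the kind of duplication they lie in.

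Tandem arrays were among these clusters. DXZ4 is a macrosatellite with a CTCF-binding unit that lies at a boundary of chromosome folding on the inactive X chromosome. Its 22 peaks spanned chrX:115725926-115889007, and no other peak lay among them. Of these, 16 lay in the long noncoding RNA gene DANT1 with a median spacing of 2.98 kb, a shortest of 2.71 kb and a longest of 3.09 kb. The median stretch of these 16 peaks occurred 17 to 19 times, and 12 of them were repeated over all stretches. The other 6, for which the processed pseudogene SUMO2P21 was the nearest gene, were separated from them by 107 kb in GRCh38 coordinates. How much of that interval is assembled sequence was not examined. The peak at the start of DANT2, another RNA gene of the locus, had no repeated stretch and log2 signals of 4.39 after IFN-β and 4.91 in the control.

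The 18 peaks of the U2 array spanned 69.9 kb of chromosome 17 (chr17:43231145-43301076) with a median spacing of 3.86 kb, and again no other peak lay among them. The spacing was uneven, from 1.9 to 15.4 kb between the 11 of these peaks that overlapped a U2 gene. Their repeated share had a median of 85.8% and a minimum of 58.2%, and the median stretch occurred 9 times. A second group on the same chromosome, 21 peaks at chr17:18649813-19216307, held the genes of the U3 small nucleolar RNA, which guides processing of ribosomal RNA. Here SNORD3A, SNORD3B-1, SNORD3B-2 and SNORD3C were the nearest genes of 9 peaks, whose best copies were 99.05% to 99.96% identical. The same group held FOXO3B, a copy of the transcription factor gene FOXO3, and 5 other peaks lay among its members.

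The 39 members whose best copy was the matching place on the other sex chromosome were all repeated over 100% of their stretches. They numbered 20 on X and 19 on Y. At the first pseudoautosomal region, members lay at the starts of GTPBP6, PPP2R3B, SLC25A6 (a mitochondrial ADP and ATP carrier), ASMTL and CD99 (a surface glycoprotein) on X, and at PLCXD1 and AKAP17A on Y. A peak on the partner chromosome covered the copied center, or came within 500 bp of it, for 15 of the 20 X peaks and 16 of the 19 Y peaks. In these 15 X peaks the best partner's center was displaced from the copied place by a median of 162 bp (range 23 to 653 bp), although the sequence of X and Y was the same. The SLC25A6 peak, for example, ran from 1391924 to 1392924 on X and from 1391878 to 1392878 on Y. Of 39 peaks assigned to pseudoautosomal genes by name, 38 were members, and the exception was the peak of TMLHE, outside the shared sequence, with no repeated stretch and log2 signals of 4.17 and 4.92.

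Chromosome 9 carried the widest cluster. Around its centromere and heterochromatic block, 64 of its 68 members lay in 2 clusters, 22 at chr9:39287397-43136195 and 42 at chr9:60846220-68243017. The larger one had a median repeated share of 92.0% and a median best-copy identity of 99.84%, and 13 other peaks lay within it. The smaller one held 14 other peaks. Few of these members were promoters of protein-coding genes, 6 of the 68 lying within 1 kb of such a start. Nearest genes included SPATA31A5, CNTNAP3, CNTNAP3B, ZNG1F, ANKRD20A5P, pseudogenes of the ATP synthase gene ATP5F1A, and immunoglobulin kappa segments that have left their locus (IGKV1OR-2, IGKV1OR-3, IGKV1OR9-1 and IGKV1OR9-2).

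The short arm of chromosome 21 held 35 members among 36 peaks, over 4108 kb. The short arms of the acrocentric chromosomes carry ribosomal DNA and exchange sequence with each other. All stretches were repeated in 30 of the 35 peaks, and the median stretch occurred 4 to 6 times in 27. None lay within 1 kb of a protein-coding start, 19 lay within 1 kb of the start of some annotated gene, and for 26 the nearest gene had an Ensembl identifier but no symbol. Another 7 members lay on the long arm, with the nearest genes SMIM11, SIK1, H2BC12L, PWP2, GATD3 and ICOSLG. The best copy of each was on the same chromosome at a distance of 26.6 to 39.2 Mb, with identities of 99.82% (PWP2) to 100% (ICOSLG). For 6 of the 7 a copy lay at another lowest-value peak. At the short-arm copies of the ICOSLG, GATD3, PWP2, H2BC12L and SMIM11 peaks, the annotation classes the nearest gene as an artifact. The same class is given to ENSG00000275993 at another short-arm member. These artifact entries are counted among the 19 starts and the 26 genes without a symbol. Part of the short arm in GRCh38 is known to contain falsely duplicated sequence, which is given as background only.

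Further clusters lay in segmental duplications with known gene families. On chromosome 1, 18 members at chr1:143884483-146449620 included FAM72C, FAM72D and SRGAP2B, copies of genes expressed in the developing brain. In the same span lay 25 other peaks, and the median repeated share of the members was 68.5%. The 4 FAM72 genes each had a member within 1 kb of the start, with repeated shares of 70.7% (FAM72B), 79.7% (FAM72D) and 100% (FAM72A and FAM72C). On chromosome 5, 14 members lay at chr5:69710056-71290426, with a median repeated share of 100% and 1 other peak among them. They included peaks at the starts of SERF1A, SERF1B and GTF2H2, a subunit gene of the repair and transcription factor TFIIH, and 5 intergenic peaks whose nearest starts, those of the beta-glucuronidase pseudogenes GUSBP13 to GUSBP17, were 30476 to 31404 bp away. On chromosome 16, 11 members lay at chr16:28364221-30208322, and 42 other peaks lay in the same span. The 4 members at the starts of SULT1A3 and SULT1A4 (sulfotransferases), BOLA2B and BOLA2-SMG1P6 were repeated over 100% of their stretches, and the other members over 73.8% to 94.6%. On chromosome 7, 9 members at 74797896 to 75410593 covered GTF2IRD2 and GTF2IRD2B, which encode relatives of the transcription factor TFII-I, and GTF2IP1 and NSUN5P1, with 8 other peaks among them, and the start of the parent gene GTF2I, without a repeated stretch, had log2 signals of 6.34 after IFN-β and 7.3 in the control.

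**Figure D4:**
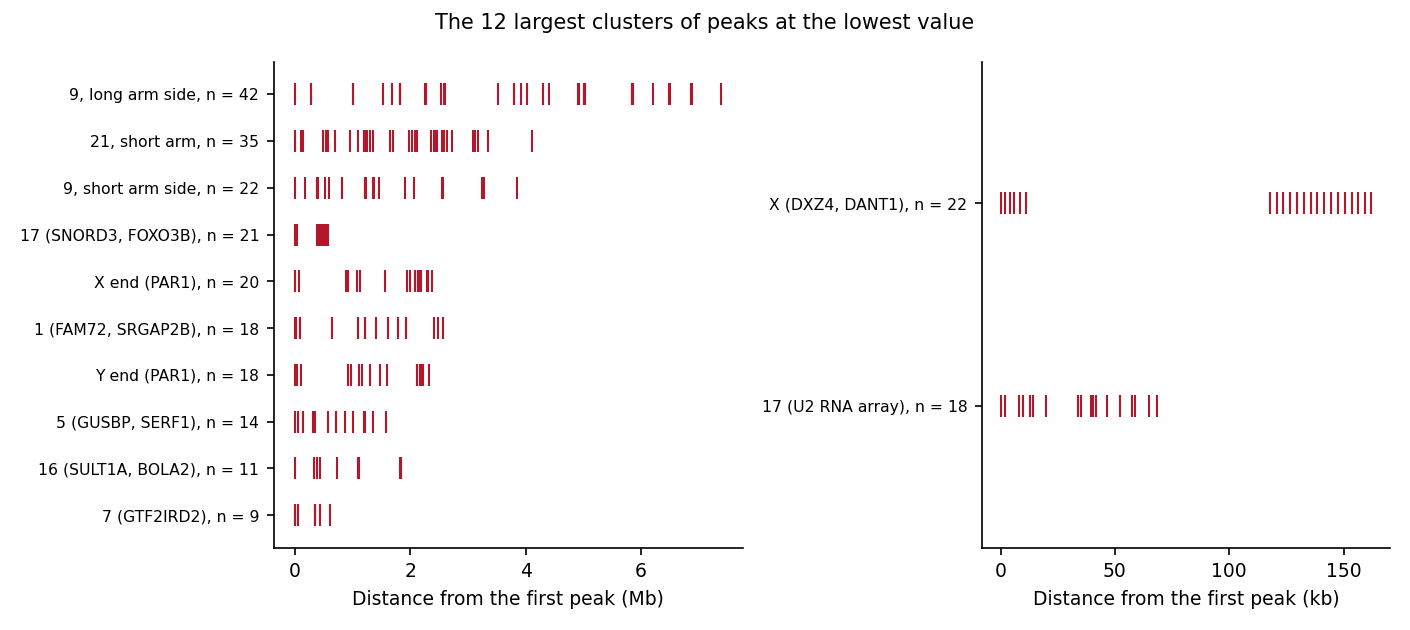
Positions of lowest-value peaks in the 12 largest clusters, each row a cluster named by chromosome and leading genes, as distance from its first peak in Mb (left, 10 clusters) or kb (right, 2 tandem arrays). Each mark is a peak center. The marks of DXZ4 form 16 evenly spaced peaks and, at a distance of 107 kb in GRCh38 coordinates, 6 more. The 42 members of the larger chromosome 9 cluster spread over 7397 kb.

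By gene family, 223 members (48.5%) had a nearest or overlapped gene in 1 of 27 listed families, as had 1666 of all peaks (8.29%). The nearest gene could lie at any distance, so a peak counted for a family need not lie at its genes. The GOLGA6 and GOLGA8 members lay 5865 to 106642 bp from the start of such a gene. The NBPF members lay 43859 to 136804 bp from an NBPF start. Zinc finger members included peaks 1417583 bp from ZNF254 and 2001277 bp from ZNF33B. The families with the highest share of members were the pseudoautosomal genes (38 of 39 peaks), the SERF1 and GTF2H2 block (13 of 15), SULT1A, BOLA2 and SLX1 (6 of 8), NOTCH2NL, FAM72 and SRGAP2 (14 of 22), ZNG1, FOXD4 and ANKRD20A (39 of 64) and the Golgi-matrix-like GOLGA6 and GOLGA8 genes (12 of 20). Intermediate shares were found for the MAGEA and F8A genes of X (7 of 17), the GTF2I block (10 of 25), RGPD and RANBP2 (2 of 5), WASH and DDX11L of the chromosome ends (6 of 18), NPIP (3 of 10), NBPF (11 of 39), DUX4 and FRG (3 of 12), olfactory receptors (11 of 45), USP17L and FAM90A (3 of 14) and the SPDYE block (4 of 24). Among families with many peaks, 30 of 318 were members for small nuclear and ribosomal RNA (9.43%), 6 of 85 for histone genes (7.06%) and 12 of 558 for zinc finger genes (2.15%), beside 2.29% of all peaks. There was 1 member of 307 for ribosomal protein genes and their copies and 1 of 8 for TBC1D3. No peak was a member among 16 for HLA, 15 for mitochondrial sequence, 5 for protocadherins and 1 for PRAME, and CCL3L and CCL4L had no peak. In each of the 22 families with members, the median repeated share was higher in members than in the other peaks of the same family. In the NBPF family, for example, the median repeated share was 91.9% in members and 40% in the rest, and in the GTF2I block 82.9% and 2.91%.

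**Figure D5:**
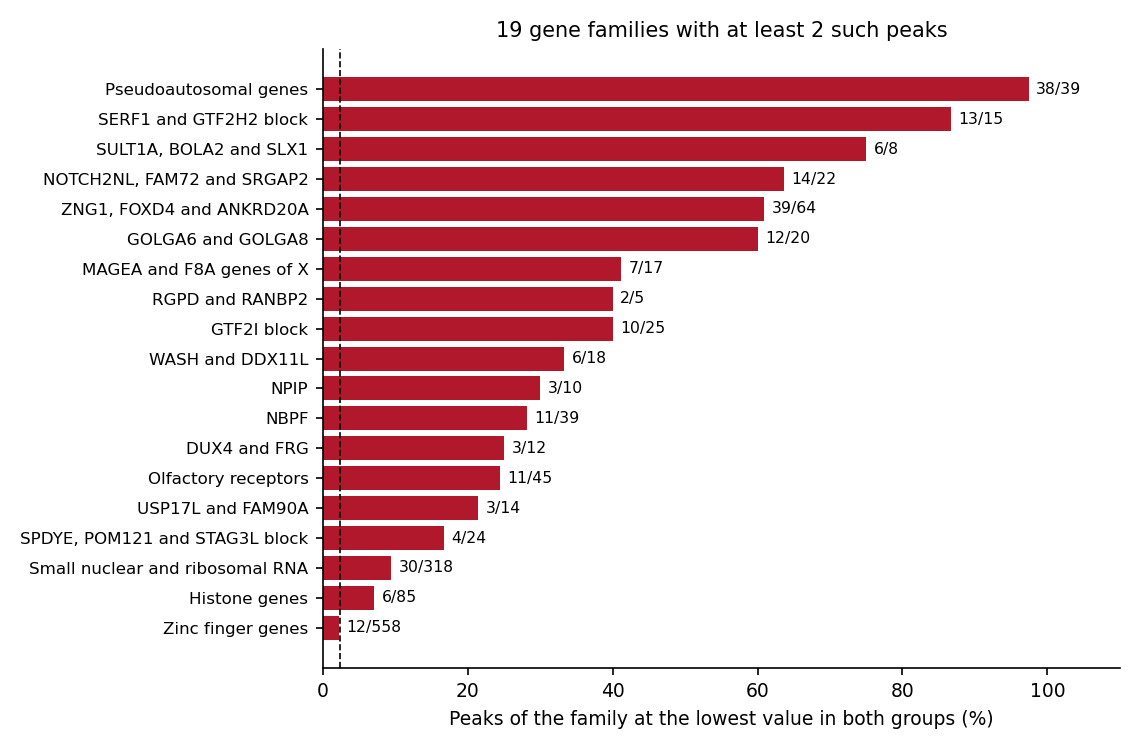
Percentage of the peaks assigned to each gene family that are lowest-value peaks, for 19 of the families with at least 2, with counts beside the bars. Peaks were assigned by their nearest gene, at any distance, or by an overlapped gene. The dashed line is the 2.29% of all peaks; shares run from 12 of 558 for zinc finger genes to 38 of 39 for pseudoautosomal genes.

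Several members came as matched promoters of duplicated protein-coding genes. On X, MAGEA3 with MAGEA6 and MAGEA2 with MAGEA2B, cancer-testis antigen genes, each had a member at the start, as had FAM156A with FAM156B and the F8A1, F8A2 and F8A3 genes, and all of these peaks were repeated over 100% of their stretches. The identity of the best copy was 99.59% for MAGEA3 and MAGEA6 and 99.99% for FAM156A and FAM156B. On chromosome 1 the histone H4 genes H4C14 and H4C15 were such a pair (99.97% and 99.98%), and on chromosome 16 NOMO1, NOMO2 and NOMO3 formed a set of 3 with repeated shares of 88.8%, 67.6% and 88.5%. On chromosome 6 the peak in HSPA1A, a gene of the inducible heat shock protein HSP70 with a near copy, HSPA1B, had a repeated share of 85.7%, but no copy of at least 1000 bp was aligned across its center.

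Annotated protein-coding starts were less frequent around lowest-value peaks than around all peaks. A protein-coding start lay within 1 kb of 87 of 460 (18.9%), and of 10853 of 20087 peaks overall (54.0%). With any annotated gene the counts were 232 (50.4%) and 12638 (62.9%). The count of 87 used protein-coding transcripts only, whereas that of 232 used every transcript of a gene. Among the 232, the nearest start belonged to a protein-coding gene for 88, a long noncoding RNA for 77, a pseudogene for 34 and a small RNA for 27. Over all peaks the corresponding shares were 82.8%, 14.3%, 1.41% and 1.26%, against 37.9%, 33.2%, 14.7% and 11.6% here. The peak center was intronic in 202 members (43.9%, and 45.5% of all peaks), intergenic in 153 (33.3% and 21.4%), in a noncoding exon in 51 (11.1% and 8.11%), in a UTR in 25 (5.43% and 16.5%) and in a coding exon in 16 (3.48% and 8.32%). The remaining 13 lay on contigs without annotation here. The nearest gene had no symbol for 143 members (31.1%) and for 13.4% of all peaks.

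Members with the least repeated sequence lay in varied places. The lowest repeated share, 4.21%, was found at 10071 to 11071 of chromosome 3, next to the chromosome end, and the next, 6.58%, at 49711037 to 49712037 of chromosome 4, near the centromere. They were followed by peaks at RALGAPA1P1 (11.7%), PAIP1P2 (18.9%), ENSG00000180015 (19.4%), TCEA1P2 (21.7%) and UQCRFS1P1 (27.1%), all processed pseudogenes whose start lay within 1 kb. In stretches of 31 bases these 5 peaks were repeated over 41.4% to 56.6%. The lowest share of repeated 31-base stretches in any member was that 41.4%, at ENSG00000180015. In stretches of 75 bases, the members next in order were of other kinds. They lay in an intron of FAM210A (28.2%), at 9732 to 10732 of chromosome 18 (32.4%) and at chr22:49385448-49386448 (32.8%). Processed pseudogenes were the nearest start within 1 kb for 17 members, and for 62 of all peaks.

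Of the 16 members without an aligned copy, 4 were among those pseudogene peaks, 3 lay side by side at chr22:49384408-49388185 and others lay in or near HSPA1A, SYNE2, TTC7B, FAM210A and UBE2SP2 and toward the ends of chromosomes 3, 5, 12 and 18. The peak at the end of chromosome 5 had no aligned copy across its center although its median stretch occurred 524 times. The members with the most aligned copies were a centromeric peak at 40592890 to 40593890 of chromosome 10, which reached the limit of 200 alignments, and peaks of DXZ4 with up to 19.

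The converse case was repeated sequence with a value above the lowest. Among peaks with a repeated share above 50%, 109 stood outside the rule, with control log2 signals up to 4.6. Only 6 peaks with a repeated share of at least 90% stood outside the rule, and each of them was still at the lowest value in 1 of the groups. Their log2 signals reached 0.76 after IFN-β and 1.04 in the control. They included EIF3C and EIF3CL, near-identical genes encoding a translation initiation factor subunit. The peak nearest EIF3CL (90.4% repeated) had 0.76 after IFN-β and -0.17 in the control, and that at EIF3C (90.4%) had 0.01 and -0.17. A second peak of EIF3C (94.0%) was a member. Similarly, RGPD6 had a member peak (91.6% repeated) whose copy at RGPD5 (89.6%) had -0.59 and 0.83, and the IQUB peak shown above (34.4%) aligned with the start of CARF (18%), which had 4.94 after IFN-β and 6.02 in the control. Of the 32 members with copies only at peaks outside the rule, 26 had their best copy at such a peak. The control log2 signal of these partner peaks ranged from -0.17, the lowest value itself, to 6.02, with a median of 0.935.

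The 79 peaks at the lowest value in a single column had a median repeated share of 49.7%, between the 91.9% of the members and the 0% of the rest. The largest contrast among them was a peak at chr3:93470021-93471021, close to the centromere, with a log2 signal of 11.22 after IFN-β and the lowest value, -0.17, in the control, and a repeated share of 34.5%. With no value per library, it cannot be told apart whether 1 or both IFN-β libraries carried that signal. Some of the 79 peaks had no repeated stretch. Among these were peaks of the contigs KI270467.1 (6.91 and 3.84 after IFN-β) and KI270466.1 (5.57), each at -0.17 in the control. Another, nearest CHCHD4P2, had -0.59 after IFN-β and 3.66 in the control.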

How the data were processed

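H3K27ac was measured in 4 libraries, with 1 input library. The authors trimmed reads with FastP, aligned them to GRCh38 with bowtie2, called peaks per library against input with MACS2 and merged and counted them with DiffBind. The labels give a read length of 75 and the study one of 84. Settings on mapping quality and input subtraction are not given in the sources used here. The deposited signal columns are log2 means of normalized reads per group. The authors' fold change, p-value and FDR columns, from DESeq2, were not used.

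Canonical k-mers were counted over GRCh38 without alternate loci (numba 0.67.0, tested on simulated data). Copies came from minimap2 2.31 (asm20, 10000 bp windows) and annotation from GENCODE release 44. A partner peak covered the copied center or came within 500 bp of it. Families were matched on gene symbols of nearest or overlapped genes. Named are, apart from items not reported here, the genes of the 12 clusters with most members, families with at least 2 members and the members with most copies and least repeated sequence. Members and lists were chosen with earlier results of these data known. No test was run: peaks are not replicates. Tested alternatives were other k-mer lengths, identity, length, distance and membership limits. Results on some items are not reported here.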

Additional observations from a re-analysis of the deposited data

How the results depend on the processing

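The number of lowest-value peaks was 460 also when values within 0.01 of the minimum were admitted. The median repeated share of 91.9% moved to 90.8% with stretches of 84 bases, 97.8% with stretches of 31 bases and 100% over the 500 bp around the center. Of the 437 peaks with at least 50% repeated stretches, 270 passed at 90%. The count near a start rose from 87 to 232 when genes of any kind were admitted. The other alternatives left each count within 1.5 times its reported value. No paired analysis was possible because the table holds group means without values per library, and for the same reason no library could be left out. The reference sequence stands in for the cells' own genome, whose copy numbers were not measured. Depth per library is not in the table.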
